A study of Mus musculus with 18 samples.

Results

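The insulin-like growth factor (IGF) axis was followed through 10 transcripts of the 24376 genes measured in the embryonic mammary epithelium of the mouse. They were chosen by name: the ligands Igf1 and Igf2, the receptors Igf1r and Igf2r, and the binding proteins Igfbp2, Igfbp3, Igfbp4, Igfbp5, Igfbp6 and Igfbp7. The choice was made with earlier results of these data known. The study set epithelium with stabilized β-catenin, which carries canonical Wnt signals to the nucleus, against control epithelium at the embryonic days E13.5 and E16.5. RNA was sequenced from hand-dissected epithelium of mammary buds 1 to 3, after the ventral skin had been treated with Dispase II and Pancreatin-Trypsin. Stabilized embryos were Krt14Cre/wt; Ctnnb1 flox3/wt, so that Cre, driven by the Krt14 promoter in surface epithelium, removes exon 3 of 1 Ctnnb1 allele. Control embryos were Krt14wt/wt; Ctnnb1 flox3/wt littermates, which carried the same floxed allele and no Cre, so an effect of Cre itself cannot be told apart from that of stabilized β-catenin. All embryos were of a mixed C57Bl/6 and NMRI background. At E13.5 each genotype had 4 libraries, with male and female embryos, and at E16.5 each had 5, with females only, so that stage and sex makeup cannot be told apart. Each library pooled 2 to 3 embryos of 1 litter and genotype, from a minimum of 3 litters. The litter of each library was not given, and all p-values measure the spread between these pooled samples.

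Library totals ran from 26768810 to 36922108 counts. Deletion of exon 3 is not visible in counts per gene. Total Ctnnb1 was 2683 ± 333 CPM (counts scaled to the adjusted library total; SD, n = 4) in E13.5 controls and 3260 ± 347 (n = 4) in stabilized samples, and 1248 ± 111 (n = 5) against 2278 ± 564 (n = 5) at E16.5. The epithelial markers were abundant in every group, with a sum over 10 genes (Epcam, Cdh1, keratins and others) from 2596 to 8085 CPM. These sums overlapped at E13.5 (2962 to 3492 CPM in controls, 2917 to 4018 in stabilized samples) and did not at E16.5 (2596 to 2926 against 4498 to 8085). At E16.5 Krt5 alone had means of 459 CPM in controls and 2556 CPM in stabilized samples, whereas Epcam was lower in stabilized samples (415 against 212 CPM). The 10 endothelial markers together reached at most 20.4 CPM in any library and the 10 immune markers at most 24.8 CPM. The mesenchymal markers were not near 0: the sum over 14 genes was 625 to 1349 CPM in E13.5 controls, 857 to 1088 in E13.5 stabilized samples, 754 to 1187 in E16.5 controls and 745 to 1122 in E16.5 stabilized samples. E13.5 control replicate 3 stood apart. Mitochondrial transcripts made up 4.18% of its counts against 2.18 to 2.50% in the other controls of that stage, and it held the highest mesenchymal sum. Some of the results that use it are therefore also given without it, and the others include it. At E16.5 the mitochondrial share was 2.21 to 3.88% in controls and 3.97, 5.32, 2.62, 4.09 and 5.36% in stabilized replicates 1 to 5. Its part in the E16.5 values was not tested. The E16.5 calls of the axis were the same with any 1 library left out, a check that cannot remove a difference shared by several libraries.

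IGF1 and IGF2 are secreted growth factors that signal through the tyrosine kinase receptor IGF1R and, from there, through IRS docking proteins, PI3-kinase and AKT. IGF2R has no kinase of this kind and carries IGF2 to the lysosome for breakdown, and Igf2 and Igf2r are both imprinted genes of the fetus. The IGFBPs hold the ligands outside the cell and either keep them from the receptor or release them after proteolysis. In the mammary gland the axis is known mainly for its roles in ductal growth and involution.

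Promoter sequence is shown for 4 of the members whose transcripts changed with genotype. Igf2 rose at both stages and Igf1r at E16.5. Igfbp4 fell at both stages, and Igfbp7 had the largest fold change. Igf2r, Igfbp2 and Igfbp5 also changed at E16.5, and their sequences are not shown. Each run is the 250 bases before a RefSeq transcript start on build GRCm38.p6, read 5′ to 3′ on the gene's own strand. Capitals mark CTTTGA, the core that the Wnt transcription factors TCF and LEF recognise, which reads TCAAAG when it lies on the opposite strand. They also mark the TATA box, TATAAA, which on the opposite strand reads TTTATA. The Igf2 window lies at chr7:142666817-142667066 on the minus strand, before the most upstream of 4 RefSeq starts. The Igf1r window lies at chr7:67952007-67952256 on the plus strand, the Igfbp4 window at chr11:99040994-99041243 on the plus strand, and the Igfbp7 window at chr5:77408046-77408295 on the minus strand.
Igf2: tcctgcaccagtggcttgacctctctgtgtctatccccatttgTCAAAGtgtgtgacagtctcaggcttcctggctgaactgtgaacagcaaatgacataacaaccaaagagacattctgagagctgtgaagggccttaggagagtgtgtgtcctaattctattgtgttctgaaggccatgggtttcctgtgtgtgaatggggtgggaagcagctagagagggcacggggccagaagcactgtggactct
Igf1r: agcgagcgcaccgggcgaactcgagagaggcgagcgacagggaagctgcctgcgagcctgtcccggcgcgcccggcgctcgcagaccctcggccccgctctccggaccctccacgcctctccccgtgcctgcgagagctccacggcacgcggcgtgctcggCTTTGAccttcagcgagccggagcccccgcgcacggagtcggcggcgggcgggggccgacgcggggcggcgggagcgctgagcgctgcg
Igfbp4: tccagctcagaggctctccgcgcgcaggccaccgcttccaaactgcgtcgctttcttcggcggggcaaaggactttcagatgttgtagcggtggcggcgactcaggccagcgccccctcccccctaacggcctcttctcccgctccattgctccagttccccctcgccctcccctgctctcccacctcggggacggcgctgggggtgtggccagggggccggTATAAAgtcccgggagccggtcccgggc
Igfbp7: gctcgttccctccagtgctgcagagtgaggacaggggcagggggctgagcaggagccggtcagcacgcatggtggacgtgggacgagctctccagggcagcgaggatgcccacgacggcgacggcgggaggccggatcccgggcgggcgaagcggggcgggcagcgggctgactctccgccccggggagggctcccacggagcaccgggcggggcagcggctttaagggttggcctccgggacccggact
The Igf2 window held 1 TCF/LEF core, which began 207 bases before the start, and the Igf1r window held 1 that began 89 bases before it. The windows before the other 3 Igf2 starts held neither motif. The Igfbp4 window held 1 TATA box 28 bases before the start, and the Igfbp7 window held neither motif. Neither motif was found in the windows of Igf2r, Igfbp2 and Igfbp5, which are not shown. All 10 members matched the RefSeq table, with 14 windows in all. CTTTGA on either strand was found in 3 of the 14 windows (Igf1, Igf2 and Igf1r) and in 13.8% of the 32851 mouse windows of the same length. TATAAA was found in 2 of the 14 (Igfbp4 and Igfbp6) and in 12.4% of all windows. These matches describe the letters only.

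At E13.5 stabilized epithelium held more Igf2 and Igfbp7 and less Igfbp4 than control epithelium. At E16.5 Igf2, Igf1r, Igfbp5 and Igfbp7 were higher and Igf2r, Igfbp2 and Igfbp4 lower. Igf1 and Igfbp6 were at the edge of detection in every group, except for Igf1 in E13.5 stabilized replicate 4 (7.79 CPM). Igfbp3 passed the test at neither stage. Of the 10 members, 9 passed the low-count filter and were tested. At E13.5, 2 of them rose and 1 fell (edgeR's quasi-likelihood test, Benjamini-Hochberg adjusted over 17269 genes, threshold 0.05), against 14.9% of all tested genes called in either direction (9.58% higher and 5.29% lower). At E16.5, 4 rose and 3 fell, against 41.7% of all tested genes (22.2% higher and 19.4% lower). The median log2 fold change of the 9 tested members was 0.41 at E13.5, beside 0.008 over all tested genes, and 0.63 at E16.5, beside 0.097. The libraries of the genotypes did not overlap for 2 members at E13.5 (Igf2 and Igfbp4) and for 7 at E16.5, the same 7 that were called. The share of all tested genes without overlap was not counted, so these counts have no background to be read against. In bulk samples, fewer cells of a type and less RNA per cell cannot be told apart.

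**Figure D1:**
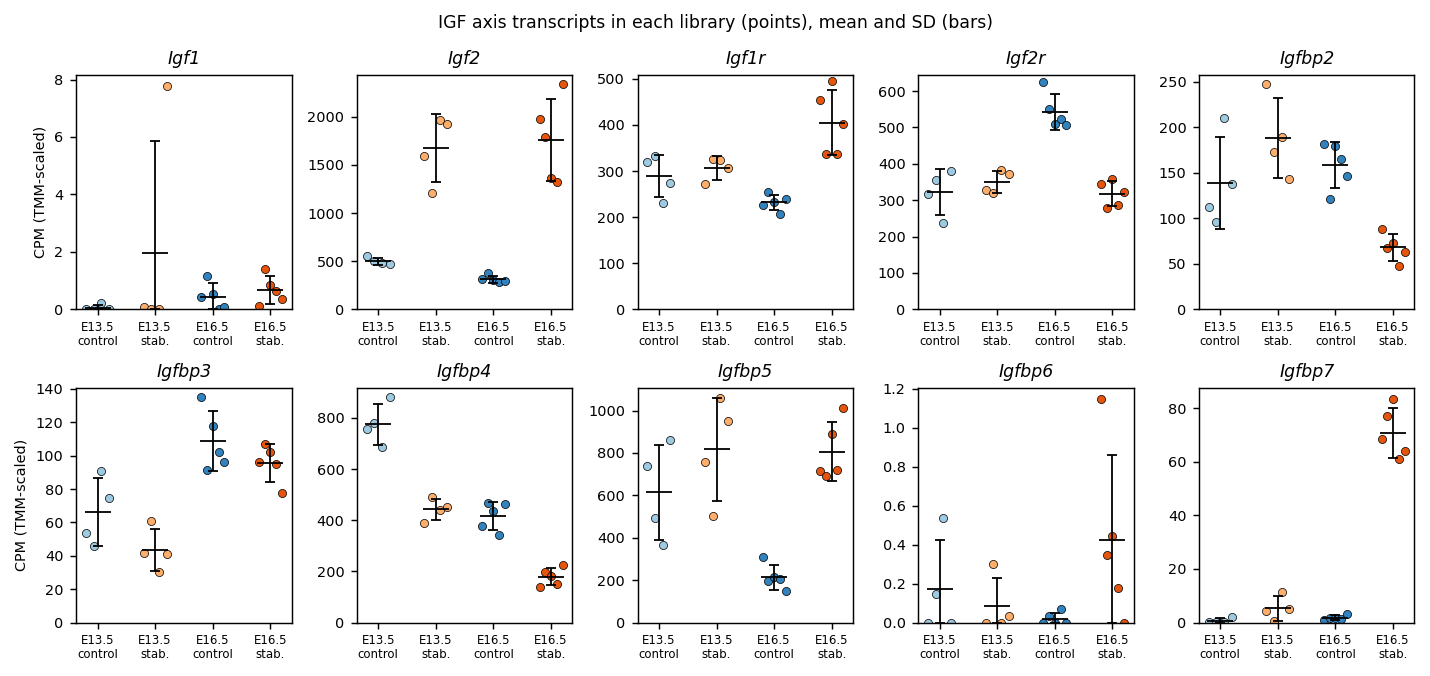
CPM of each of the 10 IGF axis transcripts (y axis, own scale per gene, from 0) in each library (points), by stage and genotype, with the group mean and SD (bars; an SD bar that would pass below 0 ends at 0). Igf2 lies between 1212 and 2337 CPM in all 9 stabilized libraries and between 280 and 549 CPM in all 9 controls, and Igfbp7 lies between 60.8 and 83.4 CPM in the 5 E16.5 stabilized libraries and at or below 11.4 CPM elsewhere.

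Igf2 encodes the main fetal ligand and lies on chromosome 7, from 142650766 to 142666816 on the minus strand (GRCm38/mm10). Its level was 549, 506, 480 and 466 CPM in E13.5 control replicates 1 to 4 and 1589, 1212, 1968 and 1925 CPM in E13.5 stabilized replicates 1 to 4. At E16.5 it was 313, 374, 302, 280 and 290 CPM in control replicates 1 to 5 and 1979, 1793, 1363, 1324 and 2337 CPM in stabilized replicates 1 to 5. Every stabilized library was above every control of either stage. The difference was 1.74 ± 0.18 on the log2 scale (SE; 3.34-fold; edgeR adjusted p = 1.48e-06) at E13.5 and 2.50 ± 0.17 (5.65-fold; edgeR adjusted p = 8.32e-10) at E16.5. The genotype effect was larger at E16.5 by 0.75 ± 0.24 on the log2 scale (interaction, edgeR adjusted p = 0.0215). The stabilized groups had means of 1674 ± 351 CPM (SD, n = 4) and 1759 ± 427 CPM (SD, n = 5), whereas the controls went from 500.2 ± 36.4 to 311.6 ± 36.8 CPM. Igf2 shares exons with Gm49394, a protein-coding model on the same strand, so reads could be split between them. Gm49394 held at most 19.4 CPM in any library.

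Igf1, the other ligand, lies on chromosome 10, from 87858265 to 87937042 on the plus strand, and is made in many tissues chiefly by stromal cells. It had 6 counts in all over the E13.5 controls, every one in replicate 3, and a count of 0 there allows up to 0.100 CPM. In E13.5 stabilized samples it had 240 counts in all, of which 238 came from replicate 4 (7.79 CPM). The E16.5 controls held 66 counts and the E16.5 stabilized samples 101 counts, with no library above 1.39 CPM. The groups overlapped at both stages. The fitted log2 difference was 5.21 ± 2.09 at E13.5 (edgeR adjusted p = 0.107) and 0.63 ± 1.55 at E16.5 (edgeR adjusted p = 0.778). The E13.5 value rested on replicate 4: without it the difference was -0.99 (edgeR adjusted p = 0.84). It passed the threshold without control replicate 3 (8.89, edgeR adjusted p = 0.0445), the only control in which the gene was counted, and in DESeq2's Wald test (5.30, adjusted p = 0.0285).

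Igf1r, the signalling receptor for both ligands, lies on chromosome 7, from 67952827 to 68233668 on the plus strand. At E13.5 it was 320, 332, 231 and 274 CPM in control replicates 1 to 4 and 271, 326, 324 and 306 CPM in stabilized replicates 1 to 4, and the groups overlapped. The E16.5 values were 227, 253, 233, 207 and 238 CPM in controls and 455, 338, 495, 336 and 402 CPM in stabilized samples, in the order of replicates 1 to 5. All 5 stabilized libraries exceeded all 5 controls at E16.5, with replicates 1 and 3 the highest. The log2 difference was 0.08 ± 0.14 at E13.5 (edgeR adjusted p = 0.798) and 0.80 ± 0.13 at E16.5 (1.75-fold; edgeR adjusted p = 3.54e-05). The change in the effect between stages was 0.72 ± 0.19 (interaction, edgeR adjusted p = 0.006).

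Igf2r, the receptor that clears IGF2, lies on chromosome 17, from 12682406 to 12769664 on the minus strand. It was 317, 356, 237 and 379 CPM in E13.5 control replicates 1 to 4 and 328, 320, 382 and 371 CPM in E13.5 stabilized replicates 1 to 4. The E16.5 levels were 626, 551, 511, 525 and 506 CPM in controls and 344, 280, 357, 288 and 321 CPM in stabilized samples. The E13.5 groups overlapped, with control replicate 3 the lowest, and at E16.5 every stabilized library was below every control. The genotypes differed by a log2 value of 0.12 ± 0.14 at E13.5 (edgeR adjusted p = 0.675) and -0.77 ± 0.12 at E16.5 (1.71-fold lower; edgeR adjusted p = 4.36e-05), and the effects differed by -0.89 ± 0.18 (interaction, edgeR adjusted p = 0.000942). At E16.5 the receptors moved in opposite directions, Igf1r up and Igf2r down.

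Among the binding proteins Igfbp4 fell at both stages. IGFBP4 binds both ligands and is cut by the protease PAPPA, and its gene lies on chromosome 11, from 99041244 to 99054392 on the plus strand. It was 755, 779, 685 and 881 CPM in E13.5 controls and 388, 489, 440 and 452 CPM in E13.5 stabilized samples. The E16.5 values were 379, 467, 435, 341 and 463 CPM in controls and 141, 197, 184, 151 and 224 CPM in stabilized samples. The genotypes did not overlap at either stage. The genotypes differed in Igfbp4 by a log2 value of -0.81 ± 0.15 (1.75-fold lower; edgeR adjusted p = 0.000686) at E13.5 and -1.22 ± 0.13 (2.32-fold lower; edgeR adjusted p = 5.22e-07) at E16.5. The effects of the stages differed by -0.41 ± 0.20, which did not pass (edgeR adjusted p = 0.128). With the gene-wise factors of the second deposited table as offsets, the E13.5 difference was -0.54 and no longer passed (edgeR adjusted p = 0.0836), and the difference between stages passed (-0.82, edgeR adjusted p = 0.0277). Relative to the median gene of the library, that factor for Igfbp4 averaged 1.065 in E13.5 controls and 0.874 in E13.5 stabilized samples.

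Igfbp2 and Igfbp5 are tail-to-tail neighbours on chromosome 1, from 72824503 to 72852474 on the plus strand and from 72857932 to 72874884 on the minus strand, with their ends 5458 bases apart. IGFBP2 is a fetal binding protein, and IGFBP5 is known in the mammary gland for its rise at involution. Igfbp2 was 113, 95.9, 210 and 138 CPM in E13.5 controls and 248, 173, 189 and 143 CPM in E13.5 stabilized samples, and the groups overlapped. E16.5 controls held 181, 121, 180, 165 and 146 CPM against 88.7, 67.6, 73.1, 47.6 and 62.5 CPM in stabilized samples, all below the controls. The log2 difference was 0.44 ± 0.23 at E13.5 (edgeR adjusted p = 0.237) and -1.23 ± 0.21 at E16.5 (2.34-fold lower; edgeR adjusted p = 7.97e-05), and the effects differed by -1.66 ± 0.31 (interaction, edgeR adjusted p = 0.000347). Without E13.5 control replicate 3, the highest of its group, the E13.5 difference was 0.71 and passed (edgeR adjusted p = 0.0226), in the direction opposite to that at E16.5.

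Igfbp5 was 737, 495, 367 and 861 CPM in E13.5 controls and 756, 505, 1059 and 951 CPM in E13.5 stabilized samples. E16.5 controls held 309, 196, 213, 206 and 147 CPM against 716, 690.5, 890.4, 722 and 1011 CPM in stabilized samples. The E13.5 groups overlapped widely, and at E16.5 every stabilized library was far above the highest control, replicate 1. The genotypes differed by a log2 value of 0.41 ± 0.26 at E13.5 (edgeR adjusted p = 0.365) and 1.91 ± 0.24 at E16.5 (3.77-fold; edgeR adjusted p = 3.89e-06), and the effects differed by 1.5 ± 0.36 (interaction, edgeR adjusted p = 0.00307). The neighbours moved in opposite directions at E16.5.

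Igfbp7 encodes a secreted protein related to the IGFBPs that binds IGFs only weakly, and its gene lies on chromosome 5, from 77349240 to 77408041 on the minus strand, where it overlaps exons of Polr2b. It was 0.296, 0.208, 0.368 and 2.04 CPM in E13.5 controls and 4.24, 0.465, 11.4 and 4.87 CPM in E13.5 stabilized samples. E16.5 controls held 0.934, 1.68, 1.80, 1.34 and 3.36 CPM against 68.4, 77.2, 83.4, 60.8 and 64.0 CPM in stabilized samples. Control replicate 4 and stabilized replicate 2 crossed over at E13.5, whereas at E16.5 the groups lay far apart. The log2 difference was 2.85 ± 0.77 at E13.5 (7.23-fold; edgeR adjusted p = 0.019) and 5.28 ± 0.72 at E16.5 (38.9-fold; edgeR adjusted p = 2.12e-05). The E13.5 call was lost without control replicate 1 (2.59, edgeR adjusted p = 0.0613), control replicate 2 (2.54, 0.0602) or stabilized replicate 3 (2.14, 0.082), and in a fit of only the E13.5 libraries (2.83, 0.101). The effects differed by 2.43 ± 0.99, which did not pass in edgeR (adjusted p = 0.073) and passed in DESeq2's Wald test (2.48, adjusted p = 0.0421).

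Igfbp3, the main carrier of IGFs in serum after birth, lies on chromosome 11, from 7206086 to 7213923 on the minus strand. It was 53.5, 46.0, 91.1 and 74.8 CPM in E13.5 controls and 41.4, 61.05, 30.5 and 40.9 CPM in E13.5 stabilized samples. At E16.5 it was 135, 91.5, 118, 102 and 96.2 CPM in controls and 96.2, 107, 102, 95.2 and 77.5 CPM in stabilized samples, and the groups overlapped at both stages. The genotypes differed by a log2 value of -0.61 ± 0.21 at E13.5 (edgeR adjusted p = 0.0582) and -0.18 ± 0.19 at E16.5 (edgeR adjusted p = 0.471). The E13.5 value passed in DESeq2's Wald test (-0.62, adjusted p = 0.0381) and without control replicate 1 (-0.70), control replicate 2 (-0.75) or stabilized replicate 2 (-0.82), and was -0.42 without control replicate 3 (edgeR adjusted p = 0.175). Igfbp6, a binding protein that prefers IGF2, lies on chromosome 15, from 102144362 to 102149511 on the plus strand. It had 21, 10, 3 and 59 counts in all in the E13.5 control, E13.5 stabilized, E16.5 control and E16.5 stabilized groups, with no library above 1.15 CPM, and was not tested.

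**Figure D2:**
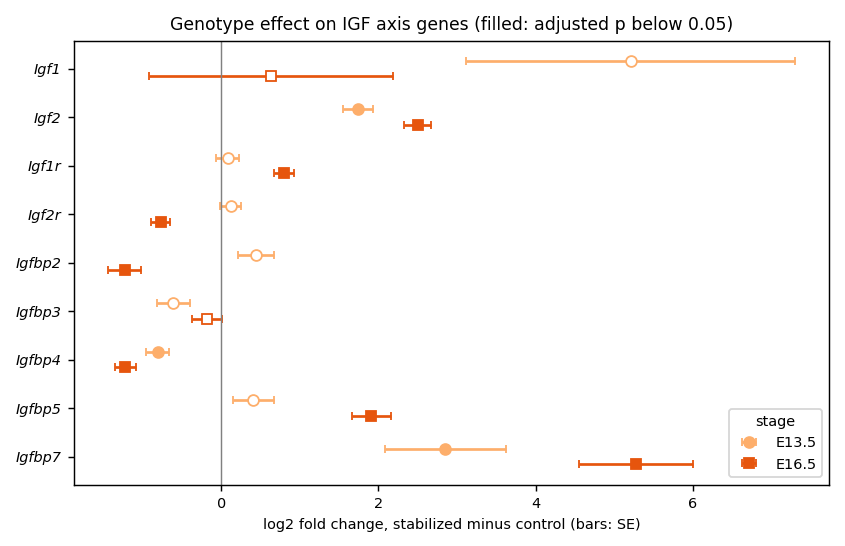
Log2 fold change between genotypes (x axis, stabilized minus control, with its SE) for the 9 tested members at E13.5 (circles) and E16.5 (squares); filled symbols passed the edgeR test. At E16.5 the filled squares lie on both sides of 0, from -1.23 for Igfbp2 to 5.28 for Igfbp7.

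The test of the difference between the genotype effects at the 2 stages uses the same libraries as the effects themselves. Of the 9 tested members it called 5: the effect was more positive at E16.5 for Igf2, Igf1r and Igfbp5 and more negative for Igf2r and Igfbp2. Of all tested genes 32.2% were called in that test, 15.6% in the positive and 16.6% in the negative direction. The median of the members was 0.43, beside 0.09 over all tested genes.

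The same libraries were then compared between stages within each genotype. In controls, from E13.5 to E16.5, Igf2r (log2 change 0.75 ± 0.13, edgeR adjusted p = 0.000105) and Igfbp3 (0.71 ± 0.20, 0.00695) rose. Igf2 (-0.68 ± 0.17, edgeR adjusted p = 0.00263), Igfbp4 (-0.89 ± 0.14, 3.01e-05) and Igfbp5 (-1.52 ± 0.25, 6.29e-05) fell. The background of this comparison was 47.5% of tested genes (24.9% higher and 22.6% lower), and the members' median was 0.19 beside -0.031 over all tested genes. Igf1r was at the threshold (-0.32 ± 0.13, edgeR adjusted p = 0.0543) and passed in 9 alternatives, with values from -0.32 to -0.49, among them DESeq2's Wald test (-0.35, adjusted p = 0.026) and the fit without E13.5 control replicate 3 (-0.41, edgeR adjusted p = 0.0141). Igfbp7 did not pass in controls (1.33 ± 0.74, edgeR adjusted p = 0.155) and did so without E13.5 control replicate 4 (2.64, 0.0116). In stabilized samples Igfbp3 (1.14 ± 0.20, edgeR adjusted p = 0.000316), Igfbp7 (3.75 ± 0.73, 0.00111) and Igf1r (0.40 ± 0.13, 0.0301) rose, and Igfbp2 (-1.47 ± 0.22, 4.4e-05) and Igfbp4 (-1.30 ± 0.14, 1.24e-06) fell, against 28% of all tested genes called in either direction. The rise of Igf1r was lost with the gene-wise offsets (0.21, edgeR adjusted p = 0.378), in a fit of only the stabilized libraries (0.40, 0.0526), and without E13.5 stabilized replicate 1 or 4 or E16.5 stabilized replicate 1 or 3 (0.32 to 0.40). The members' median was -0.02, beside 0.004 over all tested genes. Igf2 and Igfbp5 did not pass in stabilized samples (0.07 ± 0.17 and -0.02 ± 0.25), whereas both fell in controls, and the interaction passed for both. Igfbp4 fell with stage in both genotypes. Its E16.5 control mean (417.1 ± 55.0 CPM, SD, n = 5) lay near its E13.5 stabilized mean (442.2 ± 42.0 CPM, n = 4).

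Levels were set against each other only after division by gene length (CPM per kb of merged exons). On that scale Igfbp4 was the highest of the 10 in E13.5 controls, at 175.5 ± 18.3 (SD, n = 4), and its range lay above that of Igfbp5 (102.4 ± 37.4). Igfbp5, Igf2 (87.4 ± 6.4) and Igfbp2 (75.3 ± 27.4) followed with overlapping ranges, then Igf2r (34.6 ± 6.7), Igfbp3 (21.2 ± 6.6) and Igf1r (17.2 ± 2.7), each overlapping the next. In E13.5 stabilized samples Igf2 came first at 292.4 ± 61.4 CPM per kb, above Igfbp5 (136.2 ± 40.5), Igfbp2 (101.9 ± 23.9) and Igfbp4 (100.1 ± 9.5), which overlapped. In E16.5 controls Igfbp4 (94.4 ± 12.5), Igfbp2 (85.9 ± 13.6), Igf2r (58.4 ± 5.3) and Igf2 (54.5 ± 6.4) led, and each overlapped the next in order. In E16.5 stabilized samples Igf2 stood at 307.4 ± 74.6 CPM per kb, Igfbp5 at 134.2 ± 23.2 and Igfbp7 at 58.5 ± 7.8, with the first above the range of the second and the second above that of the third. The range of Igfbp7 overlapped that of Igfbp4, the next below it. Igfbp4, Igfbp2, Igf2r and Igfbp3 also overlapped from neighbour to neighbour, and Igf1r (24.1 ± 4.2) overlapped Igfbp3. Igf1 and Igfbp6 reached at most 1.03 CPM per kb in any library. With the longest transcript as length, Igf2 remained first in both stabilized groups, and Igfbp2 came before Igfbp4 in E16.5 controls.

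Summed over the 6 binding protein genes, the length-scaled level was 375.2 ± 49.2 CPM per kb in E13.5 controls, 356.5 ± 36.6 in E13.5 stabilized samples, 252.2 ± 21.2 in E16.5 controls and 301.1 ± 30.1 in E16.5 stabilized samples. The makeup of this sum differed more than its size. Igfbp4 gave 47.1 ± 4.9% of it in E13.5 controls and 28.5 ± 5.4% in E13.5 stabilized samples, and 37.7 ± 6.3% against 13.46 ± 1.81% at E16.5. Igfbp2 gave 34.0 ± 3.9% in E16.5 controls and 12.2 ± 2.7% in E16.5 stabilized samples. Igfbp5 gave 14.02 ± 2.98% in E16.5 controls and 44.4 ± 4.6% in E16.5 stabilized samples. Igfbp7 gave 0.608 ± 0.325% in E16.5 controls and 19.5 ± 2.2% in E16.5 stabilized samples. For these genes at E16.5 the shares of the genotypes did not overlap. The shares restate the levels above and were not tested again.

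**Figure D3:**
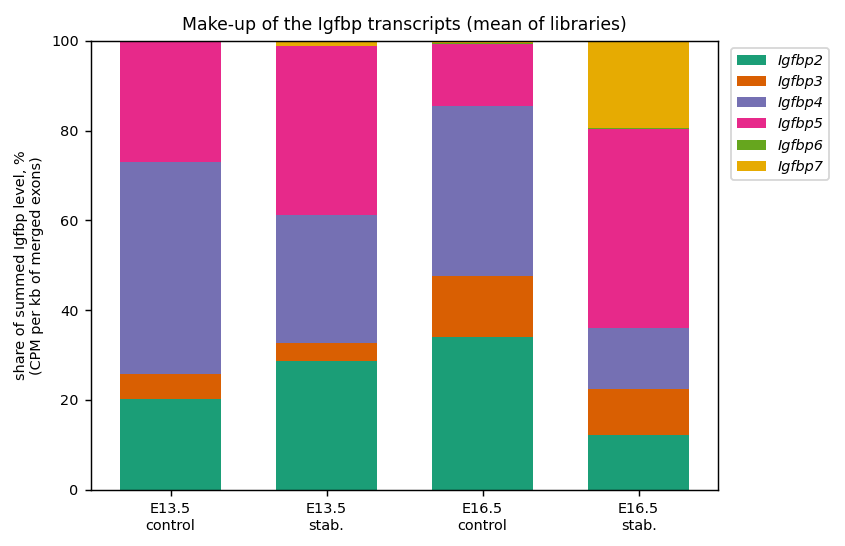
Share of each binding protein gene in the summed length-scaled level of the 6 (y axis, percent, mean over libraries) in the 4 groups. Igfbp4 and Igfbp2 fill most of the E16.5 control bar (37.7% and 34.0%), and Igfbp5 and Igfbp7 most of the E16.5 stabilized bar (44.4% and 19.5%).

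The genes around the axis were taken from lists of 61 genes, of which 59 were in the table and 56 were tested. At E13.5, 12 of the 56 rose and 7 fell in stabilized samples (of all tested genes, 9.58% rose and 5.29% fell), with a median log2 difference of 0.06 beside 0.008 over all genes. At E16.5, 17 rose and 12 fell (22.2% and 19.4% of all tested genes), with a median of 0.06 beside 0.097. With the gene-wise offsets, 7 rather than 12 rose at E13.5. The counts of each list below stand against the same background, 14.9% of all tested genes called at E13.5 and 41.7% at E16.5.

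Of the insulin family and carriers, 3 were tested, and 1 rose at each stage: Igfbpl1, an IGFBP-like secreted protein. It was at most 0.148 CPM in E13.5 controls and 17.3 ± 8.9 CPM (SD, n = 4) in E13.5 stabilized samples (edgeR adjusted p = 0.000101). At E16.5 it was 0.375 ± 0.442 CPM in controls and 5.13 ± 2.40 CPM in stabilized samples (log2 difference 3.76 ± 0.87, edgeR adjusted p = 0.00199). The insulin receptor gene Insr did not pass at either stage (-0.03 ± 0.13 and -0.07 ± 0.11).

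Among the 7 tested proteases of IGFBPs and their regulators, 2 rose and 1 fell at E13.5, and 3 rose and 1 fell at E16.5 (background 14.9% and 41.7%). Pappa2, a protease that cuts IGFBP5, went from 2.05 ± 0.83 to 9.34 ± 5.38 CPM at E13.5 (2.19 ± 0.60, edgeR adjusted p = 0.017) and from 0.967 ± 0.663 to 7.94 ± 4.93 CPM at E16.5 (3.03 ± 0.56, 0.000203). Both calls were lost with the gene-wise offsets (1.67 and 1.08, edgeR adjusted p = 0.479 and 0.489), and the E13.5 call was lost without control replicate 2 (1.93), stabilized replicate 3 (1.87) or stabilized replicate 4 (1.99). Adamts1, a secreted metalloprotease, rose from 0.882 ± 1.051 to 38.2 ± 23.4 CPM at E13.5 (5.46 ± 1.04, edgeR adjusted p = 0.00183), a call lost in a fit of only the E13.5 libraries (0.0565). Htra1, a serine protease, rose from 8.56 ± 0.61 to 23.7 ± 5.1 CPM at E16.5 (1.47 ± 0.25, edgeR adjusted p = 9.49e-05). The stanniocalcins, inhibitors of the PAPPA proteases, each fell at 1 stage only. Stc1 did so at E13.5, where controls held 233.1 ± 13.48 and stabilized samples 113.3 ± 29.7 CPM (-1.04 ± 0.17, edgeR adjusted p = 0.000182). Stc2 went at E16.5 from 27.9 ± 5.5 to 4.21 ± 2.79 CPM (-2.73 ± 0.63, edgeR adjusted p = 0.00211). Stc1 did not pass at E16.5 (33.4 ± 6.8 in controls, 29.3 ± 3.0 CPM in stabilized samples), nor did Stc2 at E13.5 (1.31 ± 1.14 and 1.63 ± 0.99 CPM).

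Of the 3 Igf2 mRNA-binding proteins, Igf2bp1 held 192.7 ± 31.1 CPM in controls and 304.1 ± 27.9 CPM in stabilized samples at E13.5, a rise (0.66 ± 0.15, edgeR adjusted p = 0.00466), and fell at E16.5, from 154.5 ± 9.8 to 96.1 ± 20.0 CPM (-0.68 ± 0.14, edgeR adjusted p = 0.000391). Its effects differed by -1.34 ± 0.20 (interaction, edgeR adjusted p = 4.29e-05). The E13.5 call was lost with the gene-wise offsets (0.43, edgeR adjusted p = 0.161). Igf2bp2 passed narrowly at both stages (0.35 ± 0.11 and 0.25 ± 0.10), and both calls were lost in the fit without a low-count filter (edgeR adjusted p = 0.0557 and 0.0687) and when any of several single libraries was left out. For the E13.5 call these included control replicate 3 (0.31, edgeR adjusted p = 0.059).

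Among the 13 receptor adaptors, 4 rose and 2 fell at E13.5, and 2 rose and 4 fell at E16.5, beside 14.9% and 41.7% of all tested genes. Grb14, an adaptor that inhibits the insulin receptor, rose from 6.47 ± 2.36 to 20.5 ± 1.2 CPM at E13.5 (1.66 ± 0.27, edgeR adjusted p = 0.000184) and from 2.54 ± 0.69 to 17.8 ± 3.2 CPM at E16.5 (2.81 ± 0.25, 3.68e-08). Irs4, an IRS docking protein, fell from 201.6 ± 90.0 to 17.2 ± 9.1 CPM at E13.5 (-3.55 ± 0.54, edgeR adjusted p = 0.00022). At E16.5 it was low in both genotypes and fell from 6.89 ± 2.73 to 0.583 ± 0.421 CPM (-3.58 ± 0.55, edgeR adjusted p = 6.02e-05), with at most 30 counts in any stabilized library. Gab1, another docking protein, rose at E13.5 by 0.72 ± 0.13 (edgeR adjusted p = 0.000501) and did not pass at E16.5 (-0.06 ± 0.11). Irs1, the docking protein best known downstream of IGF1R, rose at E13.5 (0.77 ± 0.15, edgeR adjusted p = 0.0012) and at E16.5, there from 111.6 ± 3.8 to 232.2 ± 40.2 CPM (1.06 ± 0.14, edgeR adjusted p = 3.34e-06). Socs2, a suppressor of growth hormone signalling, fell at E16.5 from 51.8 ± 6.9 to 14.2 ± 4.2 CPM (-1.86 ± 0.24, edgeR adjusted p = 4.38e-06). Its smaller E13.5 difference passed (-0.85 ± 0.27, edgeR adjusted p = 0.0356), a call lost with the gene-wise offsets (0.0909), in a fit of only the E13.5 libraries (0.0927) and when any of 5 single libraries of that stage was left out (-0.69 to -0.87). Control replicate 3 was among these libraries (-0.69, edgeR adjusted p = 0.0934).

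Of the 21 PI3-kinase, AKT and mTOR genes, 1 rose and 2 fell at E13.5, and 4 rose and 5 fell at E16.5, shares close to the 14.9% and 41.7% of all tested genes. At E13.5 Pik3ip1, which encodes a PI3-kinase inhibitor, fell by 0.86 on the log2 scale (SE 0.22, edgeR adjusted p = 0.0119). Eif4ebp1, a translation repressor controlled by mTOR, rose by 0.74 ± 0.24 at E13.5 (edgeR adjusted p = 0.0433), a call lost in most of the alternative fits, and fell by 0.71 at E16.5 (SE 0.21, edgeR adjusted p = 0.0121). At E16.5 Pik3r1, a regulatory subunit of PI3-kinase, rose from 115.8 ± 8.9 to 493.0 ± 101.2 CPM (2.09 ± 0.18, edgeR adjusted p = 1.5e-08) and Pik3r3, another such subunit, rose by 0.66 ± 0.12 (0.00019). Akt1 fell from 349.7 ± 25.7 to 173.1 ± 33.8 CPM (-1.01 ± 0.13, edgeR adjusted p = 4.36e-06).

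Of 9 FoxO transcription factors and genes they are known to activate, 2 rose and 2 fell at E13.5, and 6 rose and 1 fell at E16.5, beside 14.9% and 41.7% of all tested genes. The list's medians were 0.03 and 0.93, beside 0.008 and 0.097 over all tested genes. Larger E16.5 medians were found for the insulin family and carriers (2.42) and the IGFBP proteases and regulators (1.0). The E16.5 medians were 0.06 for the Igf2 mRNA-binding proteins, -0.1 for the receptor adaptors and -0.04 for the PI3-kinase, AKT and mTOR genes. Txnip, an inhibitor of thioredoxin, fell from 174.6 ± 42.4 CPM in E13.5 controls to 99.8 ± 22.1 CPM in stabilized samples (-0.81 ± 0.20, edgeR adjusted p = 0.00871) and rose at E16.5 from 73.7 ± 8.8 to 195.0 ± 48.1 CPM (1.40 ± 0.18, 3.93e-06). Sesn1, a stress-induced sestrin, did likewise (-0.60 ± 0.16 and 0.93 ± 0.14, edgeR adjusted p = 0.015 and 3.37e-05). The effects differed by 2.21 ± 0.27 for Txnip (interaction, edgeR adjusted p = 4.41e-06) and by 1.52 ± 0.22 for Sesn1 (2.2e-05). The E13.5 call of Sesn1 was lost with the gene-wise offsets (-0.44, edgeR adjusted p = 0.204), in a fit of only the E13.5 libraries (-0.60, 0.0689) and without stabilized replicate 3 or 4 (-0.53 and -0.50). Foxo6 rose at E13.5 by 1.25 ± 0.23 (edgeR adjusted p = 0.00061) and at E16.5 by 1.21 ± 0.20 (7.84e-05). Bcl6, a transcriptional repressor, rose at E16.5 from 5.71 ± 0.60 to 47.5 ± 9.4 CPM (3.06 ± 0.34, edgeR adjusted p = 5.88e-07).

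**Figure D4:**
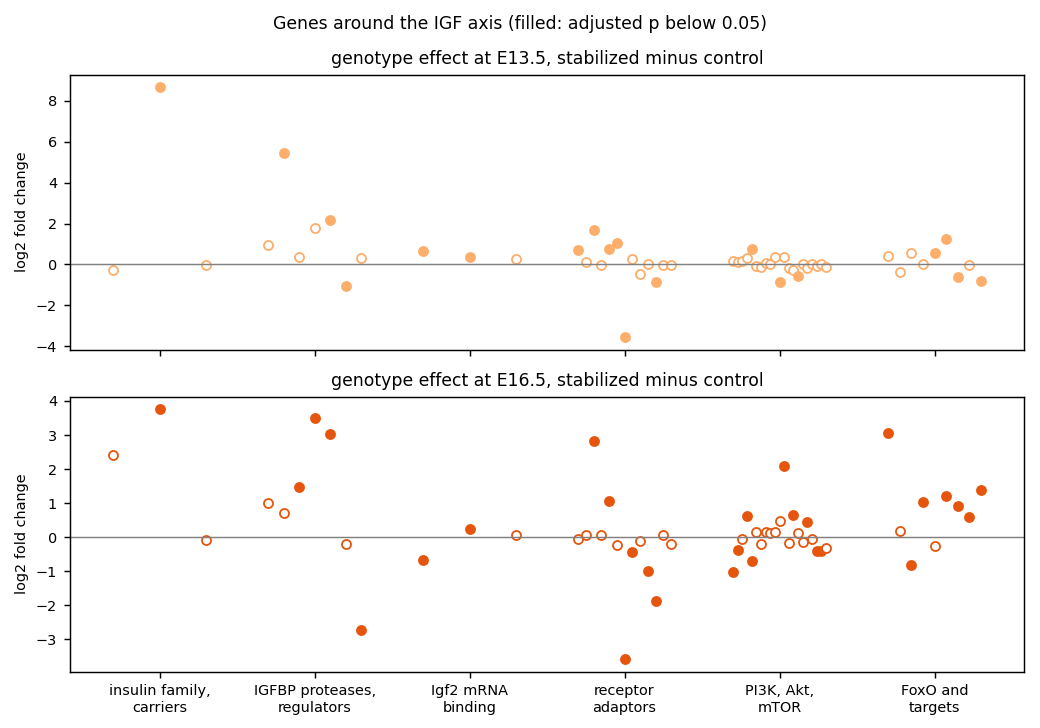
Log2 fold change between genotypes (y axis) of the 56 tested genes around the IGF axis, 1 point per gene, by list, at E13.5 (top) and E16.5 (bottom); filled points passed the edgeR test. At E13.5, 19 points are filled and at E16.5, 29, on both sides of 0 in most lists.

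The genes most like each member were found by Pearson's r of log2 CPM over the 18 libraries, among 11953 genes. These r values are descriptions, since the libraries share stage and genotype groups and most of the variation lies between the groups. Igf2 was closest to Synpo2 (r = 0.981), and Igfbp4 to Erbb4 (0.973) and Vav2 (0.968). Igf1r was closest to Neo1 (0.951) and Notch2 (0.937), and Igf2r to Flna (0.957) and Pprc1 (0.948). Igfbp7 was closest to Dsg1b (0.964) and Fam84a (0.959), Igfbp2 to Med8 (0.951) and Mrfap1 (0.916), Igfbp5 to Thsd7a (0.946) and Pcdh10 (0.94), and Igfbp3 to Acat1 (0.917) and Prcp (0.898). For Igf1 no gene exceeded 0.69, which was reached by Lum, a matrix gene of the mesenchyme, and Zfp110 came next at 0.683. Among the members themselves, Igf2 and Igfbp5 ran most closely together (r = 0.833), and Igfbp4 and Igfbp7 most in opposition (-0.88).

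Several members are also made by mesenchyme, so markers of other cell types are given beside them. Of 14 mesenchymal markers, 1 rose and 1 fell with genotype at E13.5 (edgeR): Postn went from 88.0 ± 50.1 to 488.3 ± 131.8 CPM (SD, n = 4 each) and Vim from 463.4 ± 81.9 to 203.1 ± 23.1 CPM. At E16.5, 2 rose (Dcn and Postn) and 3 fell (Vim, Pdgfra and Pdgfrb). Over all tested genes the share called was 14.9% at E13.5 and 41.7% at E16.5, so the mesenchymal counts lay near the background. Dcn, a matrix proteoglycan, went from 4.02 ± 3.46 to 301.3 ± 74.6 CPM (n = 5 each) and Vim from 575.0 ± 83.0 to 174.7 ± 42.4 CPM. The mesenchymal sums of the genotypes, given with the libraries, overlapped at both stages, but each sum joins markers that moved in opposite directions. At an unadjusted edgeR p below 0.05 there were 3 of the 14 mesenchymal markers at E13.5 and 8 at E16.5. DESeq2's Wald test called 3 and 7 of them. Of the 8 tested endothelial and 10 tested immune markers edgeR called 0 at either stage. At an unadjusted edgeR p below 0.05 there were 2 endothelial markers at E13.5 and 0 at E16.5, and 2 and 3 immune markers. DESeq2 called 0 endothelial markers at either stage, 0 immune markers at E13.5 and 2 at E16.5. The immune sum was low but did not overlap between the genotypes at E16.5, with 17.2 to 24.8 CPM in controls and 9.09 to 11.6 CPM in stabilized samples. Of the 10 epithelial markers, 2 rose and 2 fell at E13.5, and 6 rose and 3 fell at E16.5. Among those that rose at E16.5 were Krt15 (4.06 ± 0.41), Trp63 (2.99 ± 0.12) and Krt5 (2.48 ± 0.22). The 3 that fell there were Krt8 (-2.26 ± 0.32), Krt18 (-1.86 ± 0.25) and Epcam (-0.97 ± 0.11). Of 3 adipocyte markers, 2 rose at E16.5 (Fabp4 and Pparg), where their sum was 0.840 to 3.28 CPM in controls and 6.27 to 20.7 CPM in stabilized samples. Of 3 tested muscle markers 1 rose at E13.5 and 1 fell at E16.5, of 8 neural and Schwann cell markers 1 rose and 1 fell at E13.5 and 1 rose at E16.5, and of 6 melanocyte markers 1 fell at E13.5 and 2 rose at E16.5. The part of any of these cell types in the values of the IGF axis was not tested.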

How the data were processed

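RNA was measured in 18 libraries of embryonic mammary epithelium, which per the labels' protocols were prepared with an Ovation SoLo kit. Per the submitters' processing notes the tools included Salmon 0.99.0, Trimmomatic 0.39 and DESeq2 3.15 (which reads like a Bioconductor release number), with build mm10. For strand setting, annotation release and counter settings, the sources used here give nothing; members that overlap other genes, such as Igf2 and Igfbp7, have uncertain counts. The main deposited table holds estimated counts per gene, already whole numbers, so no rounding was needed. The second deposited table holds a signal, each count divided by the authors by a factor that differs between genes within a library, and it served only for an alternative with these factors as offsets.

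From the counts, edgeR 4.0.16 (R 4.3.3) kept 17269 genes (filterByExpr, minimum count 10), scaled libraries by TMM (0.777 to 1.17) and fitted its quasi-likelihood model, in robust form and with 4 group means, to all 18 libraries (common dispersion 0.25). The Benjamini-Hochberg adjustment covered every tested gene, and genes under 0.05 were called. Standard errors are the log2 fold change divided by the root of edgeR's F statistic. CPM are counts scaled to the TMM-adjusted library total. Fitted fold changes of genes with very few counts depend on edgeR's prior count. Correlations used log2 CPM with a prior count of 2. Gene positions and lengths came from GENCODE M21 (GRCm38), promoters from RefSeq. The code was tested on simulated data.

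The members and lists were chosen with earlier results of these data known. Pathway genes named are up to 3 per list and genotype comparison, those with the smallest adjusted p below the threshold, and list members that did not pass may be named with values. For likeness, the 2 genes with the highest r to each member were named, among genes whose mean log2 CPM was 1 or more. Some genes that these rules name are not reported here. Their values at the other stage and a few other genes (Insr, the marker genes and the overlapping genes) were named after their values were seen. Alternatives were DESeq2 size factors in edgeR, DESeq2's Wald test (1.42.0), no low-count filter, offsets from the deposited signal, only the groups compared, a replicate block, each library left out in turn and, for levels, the longest transcript as length. Depth was 26768810 to 36922108 counts per library. A saved R object was not used here.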

Additional observations from a re-analysis of the deposited data

Results flagged for a closer look

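In 4 of 40 sets of libraries (10 genes in 4 groups), 1 library lay far above the others. For ordinary values the rule used marks about 1 in 20 sets by chance, a rate that was not tested for counts near 0, such as those of Igf1 and Igfbp6. Igf1 was highest in E13.5 control replicate 3 (0.201 CPM, with the other 3 at 0) and in E13.5 stabilized replicate 4 (7.79 CPM). Igfbp6 was highest in E13.5 stabilized replicate 2 (0.299 CPM), which rests on 9 counts. Igfbp7 was highest among E13.5 controls in replicate 4 (2.04 CPM). The genotype effect differed between stages in edgeR's interaction test for 5 members. The difference, E16.5 minus E13.5 on the log2 scale, was 0.75 for Igf2, 0.72 for Igf1r, -0.89 for Igf2r, -1.66 for Igfbp2 and 1.5 for Igfbp5.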

How the results depend on the processing

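At E16.5 the calls of the 9 tested members were the same in every alternative run, with 4 higher and 3 lower throughout. At E13.5 the number of members higher was 2 in the reported fit, 1 with only the 2 groups compared and 1 to 4 when single libraries were left out (4 without control replicate 3). The number lower was 1 in the reported fit, 2 in DESeq2's Wald test, 0 with the offsets of the deposited signal, where Igfbp4 did not pass (edgeR adjusted p = 0.0836), and 1 to 2 when single libraries were left out. Over all genes, 1655 were higher and 914 lower at E13.5, against 1145 and 564 with those offsets and 1020 and 631 with only the 2 groups compared. These all-gene counts also rose without control replicate 3, to 1918 and 1117, and in DESeq2's Wald test, to 1999 and 1267. Directions turned for values near 0 or with few counts. With the offsets, Igf1 at E16.5 was -0.52. When single libraries were left out, the E13.5 difference ran from -0.99 to 8.89 for Igf1, from -0.01 to 0.16 for Igf1r and from -0.0031 to 0.21 for Igf2r. The interaction of Igf1 ran from -8.26 to 1.62. The stage effect in stabilized samples ran from -1.96 to 4.66 for Igf1, from -0.05 to 0.17 for Igf2 and from -0.19 to 0.13 for Igfbp5. Same-numbered control and stabilized libraries did not deviate together (r from -0.091 to 0.172 over 4 pairs at E13.5 and from -0.099 to 0.131 over 5 pairs at E16.5), so the numbers were not taken as a pairing. Libraries with different numbers could still share a litter, which this check cannot show. With the replicate block, the members called numbered 2 higher and 1 lower at E13.5 and 4 higher and 3 lower at E16.5, the interaction of Igfbp7 passed (2.54, edgeR adjusted p = 0.0396), and the stage effect in stabilized samples was 0.05 for Igf1, 0.02 for Igfbp5 and 0.39 for Igf1r, which no longer passed (0.0645). The fit of only 2 groups gave no interaction and no value for Igf1 in 2 comparisons. Depth limits Igf1 and Igfbp6, where a count of 0 allows up to 0.0876 to 0.115 CPM, depending on the library.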
